A study of Homo sapiens with 27 samples.

Results

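Human 501mel melanoma cells that lacked both TFE3 and TFEB (DKO) were compared with cells that lacked TFE3 alone (TFE3 KO), after both had spent 12 h with Torin at 250 nM. Torin blocks the kinase mTOR. Because the TFE3 edit was present on both sides, the contrast addresses what the further TFEB edit goes with while mTOR is inhibited. TFEB transcripts were already low in TFE3 KO Torin, as given below. It took 6 of the 27 libraries of the series, 3 for each genotype. The same genotypes without Torin (12 h CTRL, 3 libraries each) were set beside them. Cells without any edit (WT, untreated or with Torin) and cells with the TFEB edit alone (TFEB KO, 12 h CTRL or Torin, clone 2 of the study) are given as reference levels in places. In the 4 groups compared the cells were edited: TFE3 KO cells carried the TFE3 edit and an unedited TFEB gene, and DKO cells carried both edits. The edits were made with Cas9 protein and a synthetic guide, and edited cells were isolated as clones. The study names clone 1 of the TFE3 KO as the one sequenced and refers to a single DKO line, and whether the DKO line was made from that TFE3 KO clone is not given in the sources used here. Each genotype is therefore treated as 1 clone and its libraries as replicates of it. Clone and genotype cannot be told apart in any difference below. The p-values rest on the spread between replicate libraries, pooled within the 9 groups of the fit, and not on a spread between clones.

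TFEB and TFE3 are basic helix-loop-helix leucine zipper transcription factors of the MITF family, which bind E-box sequences such as CACGTG and are best known for driving lysosomal and autophagy genes. In fed cells the mTORC1 complex at the lysosome phosphorylates both proteins and holds them in the cytoplasm, and inhibition of mTOR lets them enter the nucleus. MITF, the third member, is the lineage factor of melanocytes and controls pigment genes, and 501mel is a line in which it is abundant.

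The guides mark what differed between the clones, and each is shown with its PAM in capitals as read from the hg38 genome. The TFE3 guide was common to both groups and the TFEB guide was used only for DKO cells in this contrast.
TFE3 guide: ggtactgtttcacctgctgcCGG
TFEB guide: agtacctgtccgagacctatGGG
The TFE3 guide matched 1 site, on chromosome X from 49038370 to 49038389 on the plus strand, in coding exon 4 of the reference transcript of TFE3. The TFEB guide matched 1 site, on chromosome 6 from 41690831 to 41690850 on the minus strand, in coding exon 3 of the reference transcript of TFEB. The libraries were made with QuantSeq Forward, which reads the 3′ end of polyadenylated transcripts, so reads of the targeted genes come from the far end of the transcript and do not cover the cut exons. A level of TFEB or TFE3 reads therefore checks the edit only indirectly. The study itself checked its clones by western blot and by Sanger sequencing of the amplified target site.

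Values are deposited normalised expression, read counts scaled to library size and divided by a scaling factor for each library. The 6 libraries held 4261846 to 6004558 gene reads each and detected 13045 to 13250 genes. A count of 0 allows up to 3 reads, which is a value of 0.461 to 0.668, and this covers counting error only. All 9 melanocytic markers were found, whereas 5 of 7 keratinocyte or epithelial, 3 of 6 fibroblast, 5 of 5 endothelial and 5 of 6 immune markers were not in the table of expressed genes. Log2 fold changes are DKO over TFE3 KO on log2(value + 1), with the standard error after the ± sign, which understates the change of genes at low values. The p-values are from limma across all genes, adjusted by Benjamini-Hochberg. Called genes had an adjusted p under 0.05 together with a difference of 2-fold or more, and a gene that passed had such an adjusted p whatever its size.

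TFEB reads were scarce in every library. The 3 TFE3 KO Torin libraries held 1.91, 1.34 and 2.29 and the 3 DKO Torin libraries 0.769, 0.190 and 0.984, which is 9, 6 and 11 reads against 5, 1 and 5. DKO was below TFE3 KO in all libraries, but the difference did not pass (log2 fold change -0.81 ± 0.32, limma adjusted p = 0.108). Under the same drug TFEB was at 4.95 in the 2 WT Torin libraries used and at 1.56 in TFEB KO Torin. The TFE3 KO Torin mean, 1.84, was thus already near that of TFEB KO Torin, at few reads. In the study's western blot, TFE3 KO clones had moderately lower TFEB protein, most so in clone 2, and somewhat lower MITF.

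TFE3 was at 13.99, 9.13 and 9.15 in TFE3 KO Torin and at 6.15, 6.26 and 8.46 in DKO Torin. The groups did not overlap, and DKO was lower by a small margin (-0.55 ± 0.17, limma adjusted p = 0.035) that no longer passed without TFE3 KO Torin replicate 1 (-0.36), DKO Torin replicate 1 (-0.48) or DKO Torin replicate 2 (-0.49). Both were below WT Torin, where TFE3 was at 19.0.

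MITF transcripts were lower in DKO. They stood at 843, 853 and 875 in TFE3 KO Torin and at 589, 601 and 551 in DKO Torin, so that every DKO library lay far below every TFE3 KO library. The means were 857 ± 16.4 and 580 ± 25.9 (SD, n = 3 each), a log2 fold change of -0.56 ± 0.06 (limma adjusted p = 2.11e-09). Without Torin the same contrast was -0.30 ± 0.06 (limma adjusted p = 9.12e-04). WT Torin and TFEB KO Torin lay between the groups compared, at 733 and 735.

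Of 12991 genes tested, 185 were called (1.42%), 153 of them higher in DKO (1.18%) and 32 lower (0.246%). With no demand on the size of the change, 1229 genes passed the adjusted p (9.46%), 677 higher (5.21%) and 552 lower (4.25%). With spike-in scaling, in which libraries were set to equal reads of the added control RNAs, 441 passed, 352 higher and 89 lower. The columns labelled WT HBSS 3 and WT Torin 1 hold identical values and were left out, and with this identical column kept under both labels 451 passed, 278 higher and 173 lower. Most called genes were weakly expressed, and 118 of the 185 had a mean under 5 over the 6 libraries. For 180 of the 185 every DKO library lay on 1 side of every TFE3 KO library, which was also so for 26.3% of all genes tested. The correlation of whole profiles was 0.986 to 0.989 between libraries of a group and 0.980 to 0.982 between groups.

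Without Torin most of the genes called under Torin went the same way, but fewer genes were called. DKO CTRL against TFE3 KO CTRL gave 97 called genes (0.747%), 71 higher (0.547%) and 26 lower (0.200%). Without the demand on size 640 passed (4.93%), 347 higher (2.67%) and 293 lower (2.26%). Groups were apart in 21.7% of all genes tested. Of the 185 genes called under Torin, 165 had the same sign in CTRL and 20 the opposite sign, and 81 passed the adjusted p in CTRL, all of them in the same direction. There were 46 genes called in both, which is 24.9% of the Torin calls and 47.4% of the CTRL calls. Across genes the log2 fold changes of the 2 contrasts, which share clones but no libraries, had a Pearson r of 0.55, and of 0.63 over the 9779 genes with a mean of at least 5. Genes are not independent replicates, so no p is given.

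**Figure D1:**
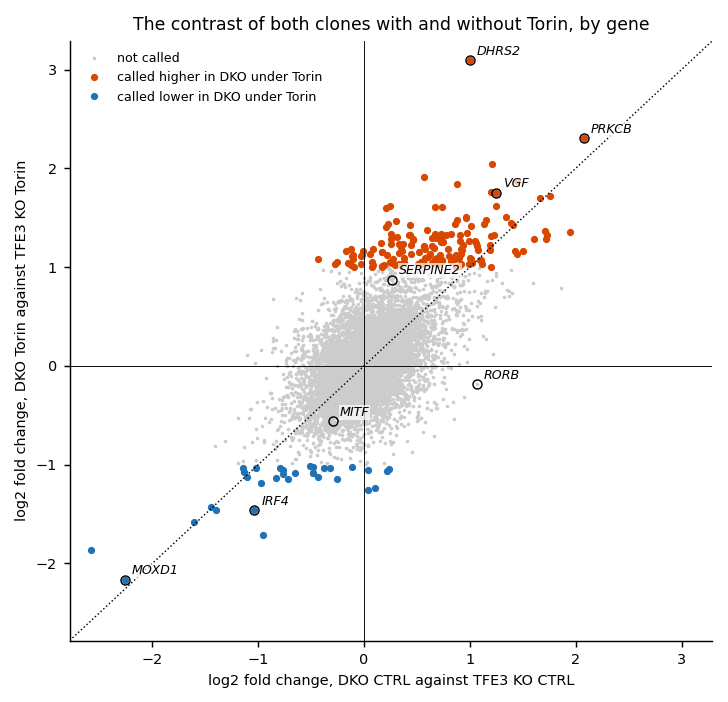
Log2 fold change of DKO against TFE3 KO for each of 12991 genes, without Torin (x axis) and under Torin (y axis), with genes called under Torin in colour, 8 genes circled and named, and a dotted line where both are equal. Called genes have the same sign on both axes except for 20, and DHRS2 stands far above the dotted line.

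Position on the chromosomes went with a broad, small shift. Among 9788 placed genes with a mean of at least 5, the 506 genes of chromosome 6, which carries TFEB, had a median log2 fold change of -0.26, and 143 of them passed as lower against 9 as higher. The 336 genes of chromosome 8 had a median of 0.25, and 90 passed as higher against 1 as lower. The medians of the other 21 chromosomes, X included, lay between -0.10 and 0.02, with chromosome 13 the lowest of them. With no limit on the mean, 151 of 658 chromosome 6 genes passed as lower (22.9%) and 11 as higher (1.67%), and 104 of 444 chromosome 8 genes passed as higher (23.4%) and 1 as lower (0.225%). Of the 11889 other genes, 4.73% passed as higher and 3.36% as lower. Called genes were 1.82% lower and 0.456% higher on chromosome 6, 3.38% higher on chromosome 8, and 1.14% higher and 0.168% lower among the others. Both chromosomes were singled out after their values were seen, so they are described and not tested.

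The shift ran along the whole of both chromosomes. All 16 windows of 10 Mb on chromosome 6 that held at least 10 such genes had a negative median, from -0.40 to -0.21, and all 13 on chromosome 8 had a positive one, from 0.10 to 0.36. The last 85 such genes of chromosome 4 had a median of 0.26, and 21 of them passed as higher and 1 as lower. The other 246 genes of chromosome 4 had a median of -0.06. Where this end segment begins was chosen with the values known, so its median and counts partly reflect that choice. The segment is therefore also described and not tested, here and where genes are placed in it below. The shift was of the same size without Torin, at -0.25 for chromosome 6, 0.24 for chromosome 8 and 0.29 for the end of chromosome 4.

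Untreated WT cells show on which side the shifts of chromosomes 6 and 8 lay. The end of chromosome 4 was not set against WT. Relative to WT untreated, the genes of chromosome 6 had a median difference of -0.23 in DKO CTRL, -0.17 in TFEB KO CTRL and 0.03 in TFE3 KO CTRL, so that both lines cut with the TFEB guide were low. A shift of like size against WT was also seen on chromosome 13, which carries neither targeted gene. There the medians were -0.18 in TFEB KO CTRL, 0.06 in DKO CTRL and 0.14 in TFE3 KO CTRL. For chromosome 8 the medians were -0.27 in TFE3 KO CTRL, -0.02 in DKO CTRL and -0.02 in TFEB KO CTRL, so that the TFE3 KO clone was the one that stood apart. Chromosome 6 held 5.17% of these genes and 28.0% of the genes that passed as lower, and chromosome 8 held 3.43% of the genes and 17.8% of those that passed as higher. DNA copy number was not measured, and its part in these shifts was not tested. Membership of these chromosomes is given below wherever a gene group rests on it.

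**Figure D2:**
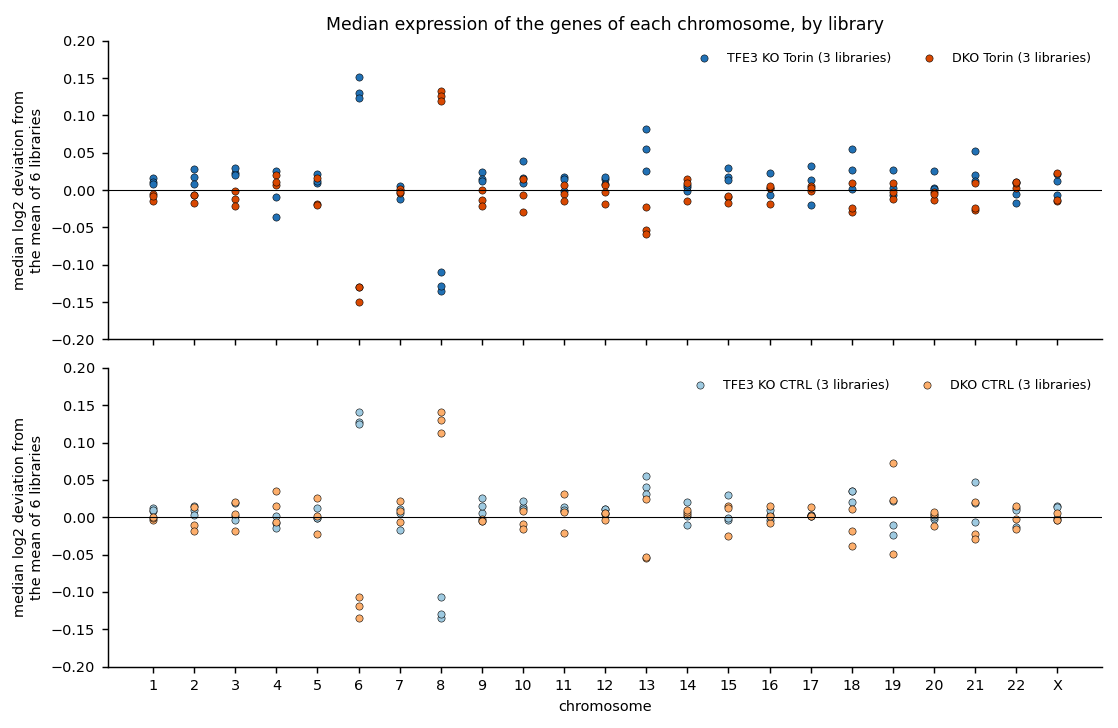
Median over the genes of each chromosome (x axis) of the log2 expression in a library minus its mean over the 6 libraries shown (y axis), under Torin (top) and in CTRL (bottom), 1 point per library. On chromosomes 6 and 8 the 3 DKO and 3 TFE3 KO libraries separate widely, with DKO at -0.15 to -0.13 on chromosome 6 and 0.12 to 0.13 on chromosome 8 under Torin, and by less on chromosome 13. Some other chromosomes separate by far less, such as chromosome 1 under Torin, with DKO at -0.014 to -0.005 and TFE3 KO at 0.008 to 0.016.

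Around the TFEB guide site, 7 genes within 500 kb had a mean of at least 5, and all 7 had a negative log2 fold change, with a median of -0.26. Over the whole of chromosome 6, 86.8% of such genes were negative, with the same median of -0.26, so these neighbours did not stand out from their chromosome as a group. USP49, a deubiquitinase gene 99 kb from the site, was called lower. It was at 19.7, 22.9 and 13.5 in TFE3 KO Torin and at 5.54, 7.78 and 10.6 in DKO Torin, groups that did not overlap (-1.14 ± 0.26, limma adjusted p = 2.14e-03). WT Torin held 10.9 and TFEB KO Torin 8.32, nearer to DKO. TOMM6, a subunit of the mitochondrial import channel, and CCND3, encoding cyclin D3, also passed as lower, by -0.26 and -0.48. Around the TFE3 site, cut in both lines, the 18 genes of that kind had a median of 0.02.

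The genes with the largest differences at a readable level were a mixed group. The highest was DHRS2, a short-chain dehydrogenase/reductase. It stood at 3.60, 5.79 and 2.08 in TFE3 KO Torin and at 37.5, 37.4 and 39.4 in DKO Torin and no libraries overlapped. Its group means differed 9.96-fold and the log2 fold change was 3.09 ± 0.19 (limma adjusted p = 1.72e-16). Levels under Torin were 12.4 in WT and 73.2 in TFEB KO, so the 2 clones without TFE3 lay on either side of WT.

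PRKCB encodes protein kinase C beta, a kinase that in melanocytes activates tyrosinase. It was at 2.33, 1.34 and 1.66 in TFE3 KO Torin and at 10.8, 11.6 and 15.9 in DKO Torin (2.31 ± 0.20, limma adjusted p = 1.48e-12). The contrast was as large without Torin (2.08 ± 0.20), and the TFEB KO clone stood highest under Torin, at 40.0. VGF, the precursor of neuroendocrine peptides, was at 29.3, 22.3 and 22.5 against 86.9, 86.3 and 81.3 in DKO Torin (1.75 ± 0.11, limma adjusted p = 1.09e-16). No library of either gene overlapped with the other group.

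A pair of genes of chromosome 8 stood among the leading 12. HEY1, a transcriptional repressor downstream of Notch, was at 12.7, 9.35 and 11.03 in TFE3 KO Torin and at 32.0, 32.1 and 35.2 in DKO Torin (1.51 ± 0.13). NEFL, the light chain of neurofilaments, was at 50.5, 53.7 and 67.0 against 155, 143 and 137 (1.34 ± 0.09). PSMB9, a subunit of the immunoproteasome, was higher in DKO although it lies on chromosome 6, at 15.4, 18.8 and 20.3 against 7.21, 6.90 and 4.37 (1.44 ± 0.25).

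The other members of the highest 12 were ANKRD33B (1.61), FAM181B (1.61), FAM171A1 (1.43), CCDC181 (1.37), FGFBP2 (1.34) and MTHFD2P1 (1.33), with means of 3.10 to 5.79 in TFE3 KO Torin and 9.12 to 16.4 in DKO Torin. FAM181B rests on few reads, and its TFE3 KO libraries ranged from 0.848 to 4.79. MTHFD2P1 is a processed copy of MTHFD2, and reads of such copies may be split between them, so its value is uncertain.

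Of the 12 lowest genes, 8 lay on chromosome 6. MOXD1, related to the enzyme that makes noradrenaline, was at 16.7, 18.3 and 17.1 in TFE3 KO Torin and at 2.46, 3.98 and 2.95 in DKO Torin (-2.17 ± 0.16, limma adjusted p = 2.57e-14). DKO CTRL was as far below TFE3 KO CTRL (-2.26 ± 0.16). IRF4, a transcription factor that acts with MITF on tyrosinase in pigment cells, was at 33.5, 30.5 and 31.2 against 11.4, 11.9 and 9.45 in DKO Torin (-1.46 ± 0.17, limma adjusted p = 9.29e-09). TFEB KO Torin, at 19.4, and WT Torin, at 22.3, lay between the groups for IRF4.

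The other chromosome 6 genes among them were TFAP2A-AS1 (-1.46), USP49 (-1.14), MLIP (-1.14), LINC00473 (-1.13), PHACTR1 (-1.09), a regulator of actin and phosphatase 1, and DST (-1.03), the cytoskeletal linker dystonin. That each lay below the chromosome's median of -0.26 follows from how they were picked. TFAP2A-AS1 overlaps TFAP2A on the opposite strand, and since the strand setting of the counting is not given in the sources used here, its reads cannot be told apart from those of TFAP2A. DST no longer passed when any of 4 single libraries was left out (limma adjusted p 0.062 to 0.084).

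Outside chromosome 6, the small heat shock protein gene CRYAB was the lowest. It was nearly constant in TFE3 KO Torin, at 23.5, 23.4 and 23.7, and at 8.15, 6.45 and 5.12 in DKO Torin (-1.72 ± 0.17, limma adjusted p = 1.82e-10). Both were well below WT Torin (62.2) and TFEB KO Torin (65.4). UBAP1L (-1.58), SLCO4A1 (-1.05), an organic anion transporter, and NCKAP5 (-1.04) completed the set, and no library of these overlapped with the other group.

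**Figure D3:**
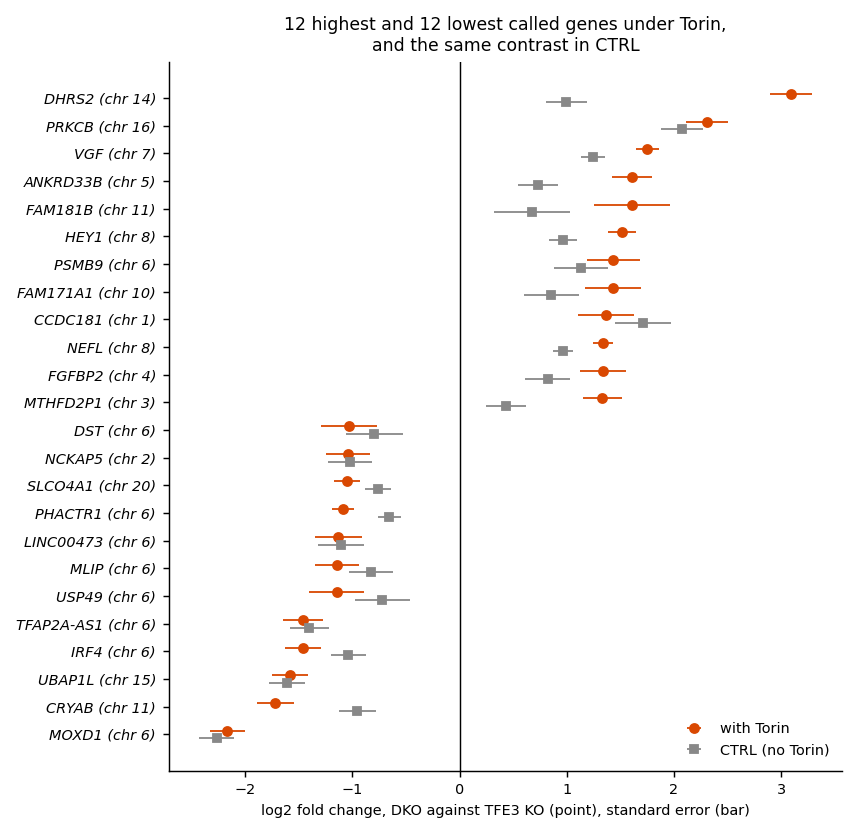
Log2 fold change of DKO against TFE3 KO (x axis) with its standard error for the 12 highest and 12 lowest called genes with a mean of at least 5 and no overlap, under Torin (circles) and in CTRL (squares). Circles and squares lie on the same side of 0 for all 24 genes, and DHRS2 lies farther out with Torin than without, by 2.09, the only one of these for which that difference passed.

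Transcription factors of melanocyte lineage and melanoma state differed in both directions. Of 17 such factors tested, 6 passed as higher and 4 as lower, with a median log2 fold change of 0.15 against -0.01 over all genes. Counts for this and every gene list below stand beside all genes tested, of which 5.21% passed as higher and 4.25% as lower. Across all lists 143 members passed, but 61 with spike-in scaling and 55 with the identical column kept. Of the 17 factors, 3 passed as higher and 3 as lower with spike-in scaling, and 2 and 3 with the identical column kept. SOX10, the neural crest factor upstream of MITF, was at 670, 679 and 651 in TFE3 KO Torin and at 554, 523 and 524 in DKO Torin (-0.32 ± 0.06, limma adjusted p = 4.69e-04). TFAP2A, a partner of MITF at melanocyte enhancers, was at 989, 895 and 740 against 470, 513 and 579 (-0.74 ± 0.11). For both genes every DKO library was below every TFE3 KO library.

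ZEB2 (-0.61 ± 0.09), a zinc finger factor of differentiated melanocytes, and POU3F2 (-0.59 ± 0.10), known as BRN2 and linked with invasive melanoma, were also lower. TFAP2A and POU3F2 lie on chromosome 6. The higher members included TWIST1, a mesenchymal factor, at 10.2, 6.90 and 9.57 against 18.8, 15.2 and 19.7 (0.94 ± 0.16, limma adjusted p = 2.79e-05). The AP-1 subunit FOSL1 was higher at a low level, 1.57 ± 0.880 against 4.24 ± 0.330 (SD, n = 3 each; 1.08 ± 0.27, limma adjusted p = 5.85e-03), and NFATC2 (0.76) and the ETS factors ETV4 (0.66), ETV1 (0.45) and ETV5 (0.26) completed them. In CTRL none of the 17 passed as higher and 3 as lower, but for none of them did the difference between Torin and CTRL pass.

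The pigment genes that passed were lower in DKO with 1 exception. Of 19 genes of melanin synthesis and pigmentation tested, 8 passed as lower and 1 as higher, with a median of -0.22, and none lies on chromosome 6 or 8. With spike-in scaling 2 passed as lower, and with the identical column kept 3. DCT, the enzyme dopachrome tautomerase, was at 777, 754 and 836 in TFE3 KO Torin and at 378, 422 and 395 in DKO Torin (-0.99 ± 0.07, limma adjusted p = 1.51e-14). OCA2, a melanosomal transporter, was at 78.2 ± 8.88 against 48.3 ± 6.21 (SD, n = 3 each; -0.68 ± 0.12), and the melanosome matrix gene PMEL was at 3859 ± 195 against 3138 ± 75.1 (-0.30 ± 0.05).

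Tyrosinase itself, TYR, was at 160, 147 and 188 in TFE3 KO Torin and 160, 173 and 165 in DKO Torin, overlapping groups with a log2 fold change of 0.01 ± 0.08. MLANA, the antigen melan-A, had -0.10 ± 0.08 (limma adjusted p = 0.465). SLC45A2, a melanosomal transporter, went the other way, from 544 ± 13.95 to 679 ± 14.8 (0.32 ± 0.06, limma adjusted p = 2.80e-04). In CTRL 7 of the 19 passed as lower and 1 as higher. Of 21 genes of melanosome biogenesis and transport, 3 passed as lower and none as higher (median -0.01). These were HPS5 (-0.67), RAB32 (-0.47) and DTNBP1 (-0.40), the last 2 on chromosome 6.

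**Figure D4:**
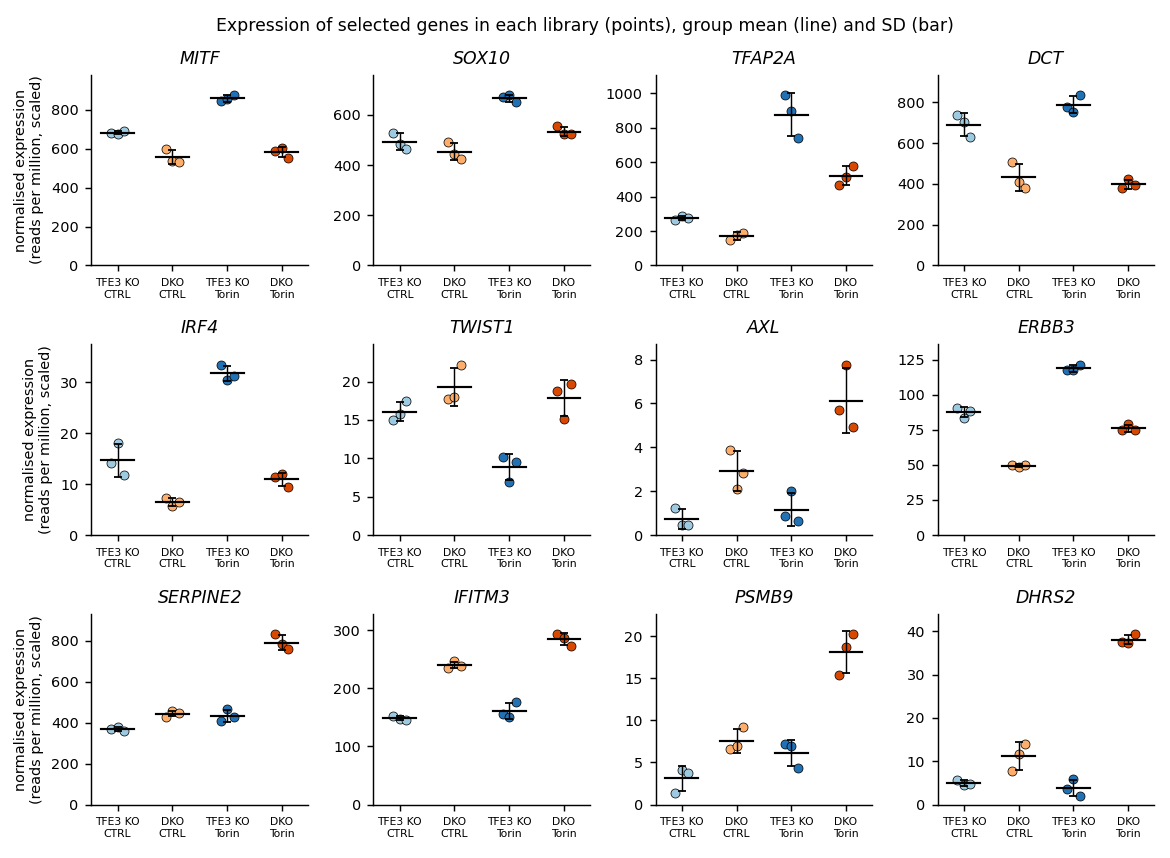
Normalised expression (y axis, scaled read count) of 12 genes in each library of TFE3 KO and DKO without and with Torin, with the group mean (line) and SD (bar), 3 libraries per group. MITF, SOX10, TFAP2A, DCT, IRF4 and ERBB3 are lower and TWIST1, AXL, SERPINE2, IFITM3, PSMB9 and DHRS2 are higher in DKO Torin than in TFE3 KO Torin with no overlap.

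Among receptor tyrosine kinases, 1 of 15 passed as higher and 3 as lower (median 0.08). AXL, a receptor of MITF-low melanoma linked with drug tolerance, was close to the detection limit in TFE3 KO Torin with 4, 9 and 3 reads, against 37, 41 and 25 in DKO Torin. As values these were 0.848, 2.004 and 0.624 against 5.69, 7.78 and 4.92 (1.76 ± 0.29, limma adjusted p = 2.74e-05). TFEB KO Torin reached 6.55 and WT Torin 1.65, so AXL was high in both lines cut with the TFEB guide. ERBB3, the neuregulin receptor of differentiated melanocytes, was at 119 ± 2.37 against 76.3 ± 2.44 in DKO Torin (SD, n = 3 each; -0.64 ± 0.10, limma adjusted p = 6.21e-06). IGF1R and MET were lower by -0.30 each, and KIT had -0.06 ± 0.09 with overlapping groups.

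Output genes of the MAPK pathway were divided, with 7 of 19 higher and 2 lower (median 0.08). With spike-in scaling 4 passed as higher and 1 as lower, and with the identical column kept 2 passed as higher and none as lower. Besides FOSL1 and the ETS factors above, the ephrin receptor EPHA4 (0.89 ± 0.14), the feedback inhibitor SPRY4 (0.85 ± 0.21) and CCND1 (0.34), encoding cyclin D1, were higher. DUSP6, the phosphatase of ERK, was at 375, 383 and 331 in TFE3 KO Torin and at 294, 272 and 272 in DKO Torin (-0.38 ± 0.07, limma adjusted p = 1.35e-04), and the early response gene EGR1 was lower too (-0.82 ± 0.21).

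Extracellular matrix and invasion genes likewise went both ways, with 6 of 31 higher and 5 lower (median 0.05), and 18 of the 49 listed were not tested. SERPINE2, a secreted protease inhibitor, was at 406, 464 and 425 in TFE3 KO Torin and at 832, 782 and 757 in DKO Torin (0.87 ± 0.07, limma adjusted p = 1.48e-12). The collagen VI chain COL6A1 was at 24.4 ± 4.01 against 44.7 ± 3.19 (SD, n = 3 each; 0.86 ± 0.16). CYR61, the matricellular target of YAP, was lower (-0.79). COL1A1, the collagen I chain and also a fibroblast marker, had 3, 1 and 0 reads in TFE3 KO Torin and 19, 22 and 13 in DKO Torin, and no fold is given against libraries that are all at or under 3 reads. The summed level of the 3 fibroblast markers in the table was 0.416 to 1.06 in TFE3 KO Torin and 3.94 to 5.85 in DKO Torin, and its part in the matrix genes was not tested.

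The interferon-stimulated genes that passed were all higher in DKO. Of 34 tested, 6 passed as higher and none as lower, with a median of 0.27, and none lies on chromosome 6 or 8. IFITM3, a membrane protein that blocks viral entry, was at 156, 151 and 177 in TFE3 KO Torin and at 293, 287 and 273 in DKO Torin (0.82 ± 0.09, limma adjusted p = 2.19e-09). OAS3, a sensor of double-stranded RNA, was at 4.57 ± 0.848 against 9.91 ± 1.36 (0.97 ± 0.23), and the ubiquitin ligase DTX3L at 24.0 ± 8.24 against 43.0 ± 2.24 (0.87 ± 0.14; SD, n = 3 each). IFI44L had 8, 4 and 1 reads in TFE3 KO Torin and 32, 23 and 22 in DKO Torin (1.59 ± 0.30, limma adjusted p = 1.55e-04). In CTRL 5 of the 34 passed as higher and none as lower.

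Genes of antigen presentation on MHC class I followed, with 5 of 17 higher and none lower (median 0.31). The immunoproteasome subunit PSMB8 was at 4.24, 3.12 and 2.29 in TFE3 KO Torin and at 7.69, 7.78 and 13.6 in DKO Torin (1.32 ± 0.23, limma adjusted p = 6.29e-05). HLA-C (0.53 ± 0.14), the peptide transporter subunit TAP2 (0.39) and the light chain B2M (0.33 ± 0.09) were higher as well, and the partner subunit TAP1 had 0.47 ± 0.20 (limma adjusted p = 0.137). Of the 17 genes, 10 lie on chromosome 6, whose median was negative. They made up 4 of only 11 chromosome 6 genes that passed as higher. HLA genes share sequence with one another and vary between people, so reads may be lost or split among them.

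Lysosomal and autophagy genes, the classical targets of TFEB and TFE3, showed little shift of their medians as groups. Of 48 lysosomal hydrolases and membrane proteins, 5 passed as higher and 3 as lower, with a median of -0.01 that matched all genes. The share of lysosomal genes that passed was 16.7%, above the 9.46% of all genes. CTSB, the protease cathepsin B, lies on chromosome 8 and was at 327, 307 and 324 in TFE3 KO Torin and at 582, 591 and 575 in DKO Torin (0.86 ± 0.06, limma adjusted p = 3.08e-15). WT Torin held 510 and TFEB KO Torin 630, so the TFE3 KO clone was the low one. Cathepsin S (CTSS, 1.33 ± 0.28) and cathepsin H (CTSH, 0.51 ± 0.10) were higher and the hydrolase NAGLU was lower (-0.48). LAMP1, an abundant lysosomal membrane protein, was at 307 ± 21.7 against 265 ± 14.7 (SD, n = 3 each; -0.21 ± 0.08, limma adjusted p = 0.065).

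Of 16 subunits of the vacuolar ATPase, which acidifies lysosomes, only ATP6V1C1 passed (0.49), and it lies on chromosome 8. Of 39 genes of autophagy, none passed as higher and 3 as lower (median -0.01), namely TMEM41B (-0.58), ATG2A (-0.40) and ATG12 (-0.39). The share that passed was 7.69%, against 9.46% of all genes. The cargo receptor SQSTM1, or p62, was at 197 ± 12.9 against 220 ± 11.2 with overlap between the groups (0.16 ± 0.07, limma adjusted p = 0.138).

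The FLCN, FNIP and Rag GTPase genes couple TFEB and TFE3 to mTORC1, and several are targets of both factors. Of 13, only FNIP2 passed (0.38 ± 0.10), and it lies at the end of chromosome 4 that was shifted upwards. RRAGD, which encodes a Rag GTPase, was at 93.1, 93.7 and 97.4 in TFE3 KO Torin and at 101, 97.1 and 102 in DKO Torin, with overlap between the groups (0.08 ± 0.08). WT Torin, at 152, and TFEB KO Torin, at 197, were above both lines without TFE3. RRAGC was at 112 ± 7.58 against 107 ± 9.88 (-0.08 ± 0.08), and FLCN had -0.02 ± 0.16.

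Of 12 genes that restrain mTORC1 signalling, 3 were higher and 1 lower (median -0.06). DDIT4, or REDD1, was at 20.8, 18.5 and 16.0 in TFE3 KO Torin and at 32.0, 32.8 and 38.4 in DKO Torin (0.87 ± 0.11, limma adjusted p = 2.31e-07), and the sestrins SESN2 (0.55) and SESN3 (0.44) were higher.

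Of 25 genes of cholesterol synthesis, 5 passed as higher in DKO and none as lower (median 0.22), against 9.46% of all genes in either direction. MSMO1, a sterol oxidase at the shifted end of chromosome 4, was at 6.78, 8.24 and 6.03 in TFE3 KO Torin and at 18.0, 12.5 and 20.7 in DKO Torin (1.15 ± 0.15, limma adjusted p = 2.91e-07). SQLE, on chromosome 8, and HMGCS1 were higher by 0.46 and 0.36. Leaving out chromosomes 6 and 8 the median of the list was 0.20.

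Of 27 genes of fatty-acid synthesis and uptake, 3 passed as higher and none as lower (median 0.17), a share of 11.1% near the 9.46% of all genes. The desaturase SCD was at 218, 208 and 209 against 298, 302 and 319 in DKO Torin (0.53 ± 0.06, limma adjusted p = 4.03e-08), ACSL1, an acyl-CoA synthetase at the end of chromosome 4, had 0.78 ± 0.11, and CPT1C 0.94. Of 34 genes of glycolysis and hypoxia, 5 were higher and none lower (median 0.10), a share of 14.7% against the 9.46% of all genes. The glucose transporter SLC2A1 was at 37.9, 36.1 and 36.0 in TFE3 KO Torin and at 58.3, 68.1 and 63.2 in DKO Torin (0.77 ± 0.09, limma adjusted p = 3.21e-08), still below WT Torin at 79.9. NDRG1, on chromosome 8, had 0.74, P4HA2 0.57 and hexokinase 2 (HK2) 0.37. Of 64 subunits of the respiratory chain, 4 passed as higher, and 3 of these, NDUFB9, COX6C and CYC1, lie on chromosome 8, with 0.32 to 0.36. The share that passed, 6.25%, was below the 9.46% of all genes.

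Cytosolic ribosomal protein genes showed small differences that depended on the scaling. Of 79, 20 passed as lower and 2 as higher, with a median of -0.12, but with spike-in scaling 1 passed as lower and none as higher (median -0.05), and with the identical column kept 6 passed as lower. The largest was RPS18, on chromosome 6, at 4611, 4396 and 4684 in TFE3 KO Torin and at 2897, 3229 and 3355 in DKO Torin (-0.53 ± 0.06, limma adjusted p = 1.62e-08). RPL37 was lower by -0.31 ± 0.06. Of the 20, 3 lie on chromosome 6, and both higher members, of which RPS20 had 0.36, lie on chromosome 8. Outside these chromosomes 17 of 71 passed as lower and none as higher, with the same median. Ribosomal protein genes have many processed copies, and reads may be shared with them. Of 45 ribosome biogenesis genes, 1 passed in each direction (median 0.03).

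Stress genes were mixed. In the integrated stress response, which restores amino acid supply through ATF4, 8 of 37 passed as higher and 2 as lower (median 0.11). With spike-in scaling 5 passed as higher and with the identical column kept 1, and none passed as lower with either. The glutamine transporter SLC1A5 was at 121, 126 and 131 in TFE3 KO Torin and at 215, 218 and 209 in DKO Torin (0.76 ± 0.07, limma adjusted p = 1.19e-10), and the factor CEBPB had 0.67. The 2 lower members form a single transporter of large neutral amino acids, SLC7A5 (-0.50 ± 0.09) and SLC3A2 (-0.35). ATF4 itself overlapped between the groups, at 513 ± 19.8 against 473 ± 21.9 (SD, n = 3 each; -0.12 ± 0.06).

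Of 19 cytosolic heat shock genes, 6 were higher and 2 lower (median 0.25). The higher ones included the co-chaperones BAG3 (0.86 ± 0.14) and HSPH1 (0.42) and the constitutive chaperone HSPA8 (0.37 ± 0.09), and the lower ones were CRYAB and, on chromosome 6, HSP90AB1 (-0.16). With spike-in scaling, and also with the identical column kept, 2 of the 19 heat shock genes passed as higher and 1 as lower. Of 28 genes of the unfolded protein response, 1 passed in each direction (median 0.01). In the NRF2, iron and ferroptosis list, 1 of 25 was higher and 1 lower, the cystine transporter SLC7A11 (0.49) at the end of chromosome 4 and the ferritin heavy chain FTH1 (-0.39). Together they made up 8% of that list, against 9.46% of all genes.

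Cell cycle genes did not separate the clones under Torin. Of 55 genes of E2F and DNA replication, 2 passed as higher, MCM4 (0.51), on chromosome 8, and GINS1 (0.49), and 1 as lower, MCM3 (-0.25), on chromosome 6. None of 44 genes of G2/M and mitosis passed, and their log2 fold changes lay between -0.42 and 0.21. Of 22 p53 target genes, 3 were higher, led by BTG2, an antiproliferative gene with 4, 5 and 4 reads against 28, 18 and 12 (1.15 ± 0.31). These 3 made up 13.6% of the list, against 9.46% of all genes that passed.

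In the BCL2 family, which sets the threshold for apoptosis, 3 of 16 were higher and 1 lower. BMF, a pro-apoptotic BH3-only gene, was at 10.4, 10.0 and 10.4 in TFE3 KO Torin and at 20.2, 24.8 and 25.4 in DKO Torin (1.11 ± 0.20, limma adjusted p = 1.42e-04), with -0.11 ± 0.20 in CTRL, although the difference between both contrasts did not pass. BCL2L11, or BIM, another BH3-only gene, was lower (-0.63). Of 16 cancer-testis antigens, genes normally expressed in germ cells, 2 were called higher. MAGEA10 was at 23.5, 21.8 and 17.5 against 53.1, 48.2 and 42.9 (1.17 ± 0.14, limma adjusted p = 1.42e-08) and SSX1 at 1.93 ± 0.442 against 8.01 ± 1.61 (SD, n = 3 each; 1.62 ± 0.21). SSX1 was at 47.8 in TFEB KO Torin. SSX and MAGEA genes are families of near copies, so their reads may be split.

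The 33 genes that the study's text examines, a list drawn partly from these samples and thus no independent evidence, held 7 that passed as higher and 8 as lower (median -0.04). Most were named above, and AXIN2, a target and brake of WNT signalling, was higher by 0.75.

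**Figure D5:**
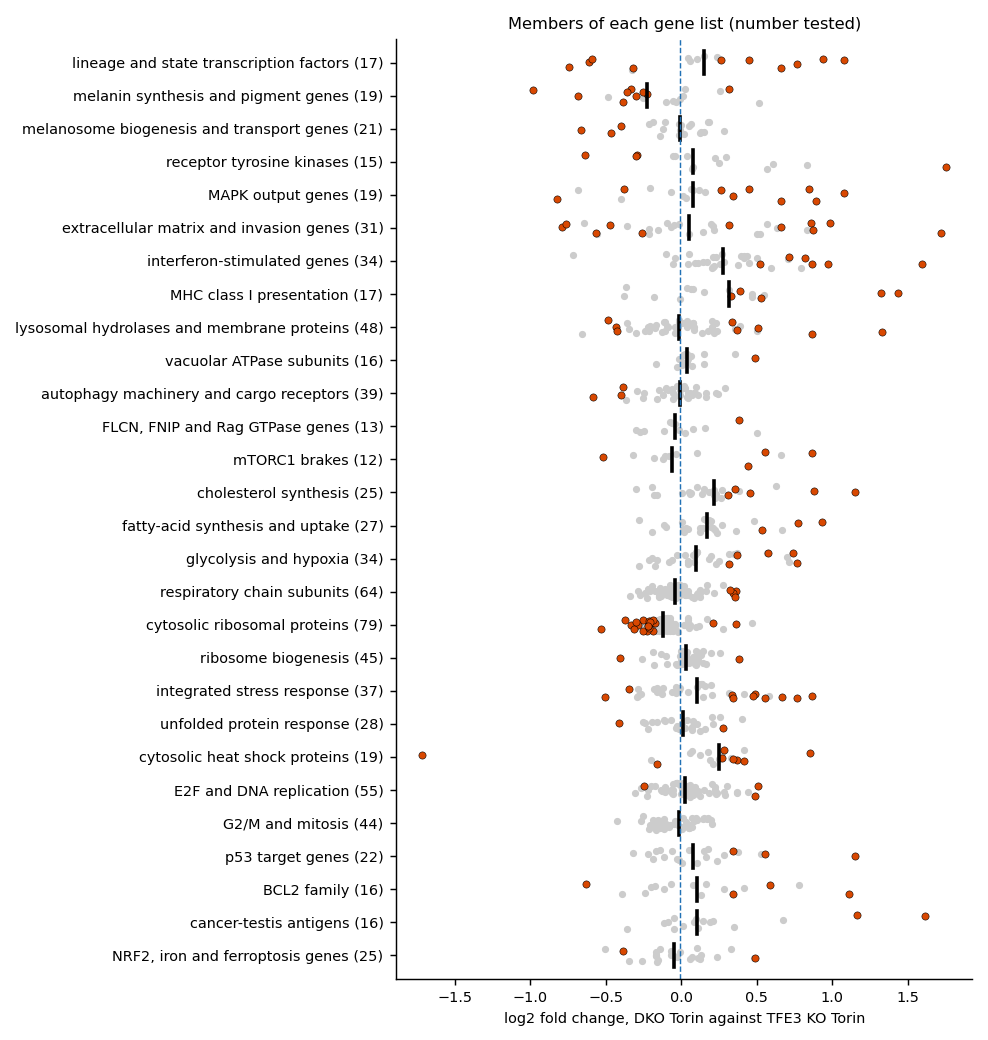
Log2 fold change of DKO Torin against TFE3 KO Torin (x axis) for each tested member of 28 gene lists (rows, number tested in brackets), filled where the adjusted p passed, with the list median (black bar) and the median of all genes (dashed line, -0.01). The medians of pigment (-0.22) and ribosomal protein genes (-0.12) lie left of the line and those of interferon (0.27), MHC class I (0.31), cholesterol (0.22) and heat shock genes (0.25) right of it, with members of each list on both sides.

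The promoters of called genes were searched for the core E-box CACGTG, which reads the same on both strands, in the 250 bases before the start site given by RefSeq (GRCh38.p14). Of 10301 tested genes with a promoter, 9.12% held it. It was found in 4 of 104 genes called higher (3.85%) and 1 of 22 called lower (4.55%). Among all genes that passed, whatever the size, it was in 29 of 452 higher (6.42%) and 57 of 469 lower ones (12.15%). It was present in 17 of 74 genes (22.97%) of the lysosomal, vacuolar ATPase and autophagy lists. The extended palindrome TCACGTGA, which contains the core, was in 1.75% of all promoters and in none of those of called genes. The stretches around the core in the 2 genes that the naming rule had picked are shown with the core in capitals, in the direction of transcription.
VGF: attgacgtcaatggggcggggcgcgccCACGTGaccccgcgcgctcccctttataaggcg
DST: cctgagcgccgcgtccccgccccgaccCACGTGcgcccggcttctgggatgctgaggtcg
The VGF stretch lies at chr7:101165591-101165650 and the DST stretch at chr6:56954986-56955045, both on the minus strand, and the core begins 54 and 188 bases before the start site. VGF was higher and DST lower in DKO. A match shows only that the letters are present.

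For 9 genes (0.0693% of those tested) the contrast differed between Torin and CTRL, 6 with a larger value under Torin (0.0462%) and 3 with a smaller one (0.0231%). The count depended on the settings: it was 1 with spike-in scaling or with the identical column kept, 17 with DESeq2, and 4 to 13 with 1 library left out, the lowest without TFE3 KO CTRL replicate 2 or DKO Torin replicate 2 and the highest without DKO CTRL replicate 3. DHRS2 passed under all 24 alternatives run for it. DHRS2 was higher in DKO in both, but far more with Torin, and the difference of the 2 log2 fold changes was 2.09 ± 0.27 (limma adjusted p = 1.21e-05). In CTRL it was at 5.65, 4.60 and 4.68 in TFE3 KO and at 7.79, 11.7 and 14.1 in DKO. Only DHRS2 and RORB passed with a difference of at least 2-fold (0.0154% of genes tested, 0.0077% in each direction). By an unadjusted p, 735 genes were under 0.05. RORB, a nuclear receptor, had 1.59, 1.38 and 0.624 in TFE3 KO CTRL and 3.43, 4.01 and 3.13 in DKO CTRL, whereas under Torin the genotypes overlapped, at 14.4, 14.5 and 12.3 against 12.5, 11 and 12.4. Its difference of -1.25 ± 0.27 was at the threshold (limma adjusted p = 0.0499) and no longer passed under 18 of 24 alternatives.

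SERPINE2 differed by 0.61 ± 0.11 (limma adjusted p = 1.88e-03), since in CTRL it was at 366, 379 and 361 in TFE3 KO and 429, 457 and 445 in DKO. The stress cytokine GDF15 was at 85.2, 93.7 and 85.7 in TFE3 KO Torin and 118, 124 and 126 in DKO Torin, but at 238, 263 and 256 against 191, 227 and 238 in CTRL (difference 0.68 ± 0.11, limma adjusted p = 3.74e-04). DKO was thus above TFE3 KO under Torin and just below it in CTRL, where the contrast alone did not pass (-0.21 ± 0.08). IER3, an immediate early gene on chromosome 6, was lower in DKO without Torin, at 327, 369 and 357 against 504, 519 and 534 in TFE3 KO. Under Torin the contrast did not pass, at 239 ± 14.7 in TFE3 KO against 260 ± 15.7 in DKO (SD, n = 3 each; difference 0.68 ± 0.11, limma adjusted p = 4.52e-04).

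APOLD1 and YWHAH, encoding a 14-3-3 protein, were higher in DKO under Torin (0.52 ± 0.08 and 0.56 ± 0.08) and overlapped in CTRL (-0.02 ± 0.08 and 0.02 ± 0.08). PDK4, a kinase that inhibits pyruvate dehydrogenase, was higher in DKO both ways, but less so with Torin (0.44 ± 0.07 against 0.94 ± 0.07). SOX4, a transcription factor gene on chromosome 6, was lower in DKO both ways and more so with Torin (-0.85 ± 0.07 against -0.39 ± 0.07), but the difference was at the threshold (limma adjusted p = 0.0499) and no longer passed under 18 of 23 alternatives. YWHAH no longer passed under 13 of 24, APOLD1 under 11 and PDK4 under 7.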

How the data were processed

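RNA from 501mel cells was sequenced with QuantSeq Forward. Per the labels and the study's methods, the authors trimmed reads (cutadapt 2.10), checked them (FastQC 0.11.9), aligned them to hg38 with STAR 2.7.8a and normalised with edgeR. The counter, its strand setting and the gene filter are not given in the sources used here. The deposited signal values are read counts scaled to library size and divided by a scaling factor per library, and whole reads were recovered from 100% of them (tolerance 0.02).

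The 64 spike-in rows were left out, which left 13459 genes. WT HBSS 3 and WT Torin 1 were identical in all 13523 rows and were both left out. The remaining 25 libraries were fitted with limma 3.58.1 (R 4.3.3) on log2(value + 1), 1 mean per group, with trended and robust moderation. Genes needed a value of 1 in at least 3 libraries, which left 12991. Alternatives used edgeR 4.0.16 and DESeq2 1.42.0 on recovered reads, other scalings, filters and pseudocounts. The limma fit was also run on simulated counts, whose outcome is not reported here. Changes were set only in genes with a mean of at least 5 in TFE3 KO Torin, with no shift of whole chromosomes. It therefore says nothing about calls at lower values. Genes were named by a rule: TFEB, TFE3 and MITF, the 12 highest and 12 lowest called genes with a mean of at least 5 and no overlap, up to 4 genes per list plus its key members, and the genes whose contrast differed between treatments. TOMM6, CCND3 and any other gene outside it were chosen after their values were seen. The members and gene lists were chosen with earlier results of these data known. A few list members are counted but not reported here by name.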

Additional observations from a re-analysis of the deposited data

Results flagged for a closer look

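The contrast of DKO against TFE3 KO differed between Torin and CTRL for 9 genes by the interaction term in limma, a count that was 1 with spike-in scaling or the identical column kept, 17 with DESeq2 and 4 to 13 with 1 library left out. The difference, Torin minus CTRL on the log2 scale, was 2.09 for DHRS2, 0.685 for IER3, 0.684 for GDF15, 0.606 for SERPINE2, 0.546 for YWHAH and 0.538 for APOLD1. It was negative for SOX4 (-0.464), PDK4 (-0.501) and RORB (-1.25). The spike-in rows were not tested as genes, but they set the spike-in scaling. Their share of reads was 4.97% ± 0.862 in DKO Torin and 5.05% ± 0.746 in TFE3 KO Torin. Both were above 3.43% ± 0.189 in DKO CTRL and 3.31% ± 0.0954 in TFE3 KO CTRL (SD, n = 3 each).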

How the results depend on the processing

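Called genes under Torin numbered 171 to 217 with 1 library left out and 185 with the replicate number as a block. Same-numbered libraries had r = -0.09 to -0.02 under Torin and 0.02 to 0.16 in CTRL, not over 0.1 in every pair, so the numbers were not taken to pair them. edgeR called 234 and DESeq2 207. Genes past the adjusted p were 1229, but 451 with the identical column kept under both labels, 441 with spike-in scaling (352 higher, 89 lower), 571 without TFE3 KO Torin replicate 2 and DKO Torin replicate 3, the libraries with the most spike-in, and 791 (without TFE3 KO Torin replicate 2) to 981 with 1 library left out. Spike-in scaling moved the median of all genes to 0.06. Called genes in CTRL were 164 with a pseudocount of 0.1, 164 with edgeR and 148 with DESeq2, and 96 to 112 with 1 library left out. Of the 2 genes called for a difference between Torin and CTRL, 1 was called with no filter, median-of-ratios scaling, only the libraries compared, edgeR, the identical column kept, spike-in scaling, without the 2 libraries named above or without chromosomes 6 and 8, and 1 to 5 with 1 library left out. List members past the adjusted p were 143, but 55 with the identical column kept, 61 with spike-in scaling, and 107 to 121 with 1 library left out. TFE3 no longer passed with only the libraries compared (-0.55), DESeq2 (-0.62), the identical column kept (-0.55) or spike-in scaling (-0.48), gave -0.78 without the 2 libraries named above, and ranged from -0.68 to -0.36 with 1 library left out. Spike-in scaling, leaving out the libraries with the most spike-in and leaving out chromosomes 6 and 8 were chosen after seeing the data. The cause was not tested. No tested result changed its direction under the alternatives run, but 73 of 214 values for the difference between Torin and CTRL in single genes, and 6 of 421 for named genes, no longer passed. Of 593 list medians under alternatives, 113 moved by more than the spread between replicates. At this depth, genes under about 3 reads cannot be compared.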
